A study of Mus musculus with 25 samples.

Results

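The genes described here are 36 genes of glycolysis and of the response to low oxygen, chosen as a named list of which every member is present among the 22439 gene symbols counted. They were followed in microglia, macrophages and their neighbours of the injured mouse spinal cord, library by library and over time. The data are droplet-based 3′ single-cell RNA counts of 30958 sorted myeloid cells in 25 libraries, taken from a 5 mm lesion segment. Control mice (Ctrl, 2 libraries) had a laminectomy, which opens the bone over the cord, without injury, and the others were taken 1 day (D1, 5 libraries), 2 days (D2, 4), 3 days (D3, 7), 10 days (D10, 5) or 21 days (D21, 2) after spinal cord injury. All mice carried Cx3cr1CreERT2, an inducible Cre recombinase driven from the locus of the fractalkine receptor Cx3cr1, so that cells are marked only where that locus is or was active. In 12 libraries all YFP+ cells of Cx3cr1CreERT2 mice were sorted together, and these are called mixed. In Cx3cr1CreERT2:R26tdTomato mice, whose Cre also switches on a red reporter, RFP+/YFP+ cells were sorted as resident (5 libraries) and RFP-/YFP+ cells as infiltrating (7 libraries). The mixed sort therefore came from 1 strain and the other sorts from the other strain. The last library, from D3, has a title naming infiltrating cells and a sort label naming both colours, and it was kept out of the comparisons. Each library pools 1 to 3 mice and is the replicate throughout. Ages are not given in the sources used here, and the p-values measure the spread between these libraries.

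Glycolysis splits glucose into pyruvate in the cytosol. Hexokinases trap glucose in the cell, phosphofructokinase sets the pace, and the lower enzymes from triosephosphate isomerase to pyruvate kinase harvest the energy. Pyruvate is then either reduced to lactate and exported or passed to the mitochondria. Hypoxia-inducible factor 1 (its oxygen-controlled subunit is encoded by Hif1a) is hydroxylated and marked for destruction when oxygen is present. When oxygen is scarce, and in activated myeloid cells also without hypoxia, it accumulates and raises transcription of most glycolytic enzymes. The factor binds DNA at a short core written ACGTG or GCGTG. Transcript counts do not measure the protein, whose stability is the main point of control.

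The promoters of the genes are shown first because these letters are what the members could share. RefSeq windows on build GRCm38.p6, 250 bases before to 50 bases after the start of transcription, were matched by symbol for 34 of the 36 members. Among these genes 31 (91.2%) held ACGTG or GCGTG on either strand in at least 1 window, and 24 (70.6%) held ACGTG. Of all 27025 genes with a window, 46.7% held either core and 21.8% held ACGTG. Of the 8658 genes tested in microglia that had a window, the shares were 68.5% and 29.9%, so expressed genes are the nearer comparison. Both strands were searched, and the palindrome CACGTG counts as ACGTG on each. A match describes these letters and is not evidence of binding. The 6 windows below belong to genes on which the results turn: Ldha, Pgk1 and Mif had some of the largest rises after injury, Hif1a and Slc16a3 took different courses in the 2 main cell types, and Pfkfb4 fell. Capitals mark either core on either strand, and every window is written along the strand of its gene.
Ldha promoter, chr7:46845554-46845853, plus strand: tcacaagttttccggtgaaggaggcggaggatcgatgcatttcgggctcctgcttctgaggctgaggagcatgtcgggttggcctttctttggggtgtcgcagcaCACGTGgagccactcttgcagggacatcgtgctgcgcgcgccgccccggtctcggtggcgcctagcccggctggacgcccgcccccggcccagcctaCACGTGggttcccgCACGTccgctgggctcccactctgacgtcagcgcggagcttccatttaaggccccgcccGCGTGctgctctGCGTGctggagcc
Pgk1 promoter, chrX:106186850-106187149, plus strand: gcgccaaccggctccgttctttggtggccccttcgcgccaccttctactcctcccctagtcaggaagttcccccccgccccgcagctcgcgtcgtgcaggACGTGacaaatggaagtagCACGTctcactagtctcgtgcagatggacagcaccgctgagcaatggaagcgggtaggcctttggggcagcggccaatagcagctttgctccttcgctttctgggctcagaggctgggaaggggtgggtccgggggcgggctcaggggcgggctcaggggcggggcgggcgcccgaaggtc
Mif promoter, chr10:75860228-75860527, minus strand: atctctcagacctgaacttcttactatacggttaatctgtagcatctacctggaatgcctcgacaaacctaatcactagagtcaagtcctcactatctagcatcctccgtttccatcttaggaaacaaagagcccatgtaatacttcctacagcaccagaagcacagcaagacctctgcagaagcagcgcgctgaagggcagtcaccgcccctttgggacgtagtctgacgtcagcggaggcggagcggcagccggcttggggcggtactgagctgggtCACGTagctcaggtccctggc
Hif1a promoter, chr12:73907617-73907916, plus strand: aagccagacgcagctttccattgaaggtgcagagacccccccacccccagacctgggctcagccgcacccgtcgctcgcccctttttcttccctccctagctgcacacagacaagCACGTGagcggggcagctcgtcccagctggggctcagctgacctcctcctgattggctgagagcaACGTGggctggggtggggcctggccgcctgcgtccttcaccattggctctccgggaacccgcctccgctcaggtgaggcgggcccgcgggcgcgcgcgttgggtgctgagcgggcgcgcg
Slc16a3 promoter, chr11:120948817-120949116, plus strand: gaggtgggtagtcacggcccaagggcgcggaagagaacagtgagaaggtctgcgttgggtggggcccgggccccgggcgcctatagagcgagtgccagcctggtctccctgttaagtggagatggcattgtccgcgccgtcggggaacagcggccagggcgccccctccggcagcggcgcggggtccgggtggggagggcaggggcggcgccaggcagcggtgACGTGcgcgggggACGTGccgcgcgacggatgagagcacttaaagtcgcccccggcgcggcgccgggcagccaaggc
Pfkfb4 promoter, chr9:108991652-108991951, plus strand: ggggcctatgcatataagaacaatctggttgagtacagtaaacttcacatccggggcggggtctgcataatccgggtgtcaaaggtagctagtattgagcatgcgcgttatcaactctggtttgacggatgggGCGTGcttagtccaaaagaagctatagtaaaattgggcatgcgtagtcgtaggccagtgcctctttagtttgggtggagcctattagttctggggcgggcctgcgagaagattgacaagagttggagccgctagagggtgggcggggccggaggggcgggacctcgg
The Ldha window held ACGTG 5 times and GCGTG 2 times by this count. Those of Pgk1 and Slc16a3 held ACGTG 2 times, that of Hif1a 3 times and that of Mif 1 time. The Pfkfb4 window held no ACGTG and GCGTG 1 time.

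The deposited cell codes gave 13289 microglia, 12841 macrophages (monocytes included), 2712 dendritic-like and 2116 neutrophil-like cells. Libraries held 155 to 3800 cells and 486649 to 33204422 counted molecules (UMIs), and the 36 genes made up 0.969% of all UMIs. The microglia of the controls carried the microglia marker list (9 genes) at a summed level of 24693 to 25965 CPM (counts per 1e6 UMIs), and those of D1 at 4036 to 8318. Over the same step the monocyte and macrophage list (12 genes) in microglia went from 11.4 to 29.7 CPM, with F10 and Gpnmb at 0 in both control libraries, to 385 to 595 CPM. The part of these markers in the results was not tested. The D1 library D1_mixed 3 stood apart. Cluster 2, a deposited cluster of cells with a low median of 1876 UMIs, made up 45.4% of its cells, against 15.2% and 15.3% in D1_mixed 1 and 2. It was the highest of all 17 libraries for 14 of 36 members in microglia and the highest of 15 for 19 of 32 members in macrophages, so values with and without it are given below. The libraries lay in 7 sequencing pools, and no control library shared a pool with a D1 library. In that comparison time and pool cannot be told apart. All D1_mixed libraries lay in 1 pool, which held no D2, D3 or D10 library. In microglia the same limit therefore holds for D3 or D10 against D1 and for D21 against Ctrl. In macrophages it holds for D10 against D1. A total of 127 cell barcodes of 30831 distinct ones occurred in more than 1 library.

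At 1 day after injury the main genes of lower glycolysis, Ldha and Mif rose in microglia. Summed over all members, the transcripts took a mean of 0.463% of the UMIs in control microglia (n = 2) and of 1.58% in those of D1 (n = 3). The mean was 1.19% for D2 (n = 3), 1.10% for D3 (n = 5), 0.793% for D10 (n = 3) and 0.870% in the 1 library of D21. In macrophages, which the controls lacked, the mean share was 1.41% for D1 (n = 4), 1.22% for D2 (n = 3), 1.05% for D3 (n = 2), 0.563% for D10 (n = 4) and 0.629% for D21 (n = 2). D1_mixed 3 held 2.22% and the other D1 macrophage sums 0.986, 1.36 and 1.09%. The D2 sums ran from 1.09 to 1.40%, so the step from D1 to D2 depends on D1_mixed 3. From here a level of a single gene is given as scaled CPM, the CPM of a library size that TMM scaling has corrected for differences in RNA composition. The mean of log2(scaled CPM + 1) over the members, a module score, was 4.98 ± 0.11 (SD, n = 2) in control microglia, 6.23 ± 0.28 (n = 3) at D1 and 5.74 ± 0.11 (n = 3) at D10. On that scale the 7 genes from Tpi1 to Pkm moved most among the enzyme groups, from 6.31 to 9.03 at D1 and back to 7.81 at D10, while the 11 upper genes went from 4.73 to 5.36. Without TMM scaling the module score was 5.43 in Ctrl and 6.04 at D1, and that of the upper genes 5.18 and 5.17. These scores were not tested.

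**Figure D1:**
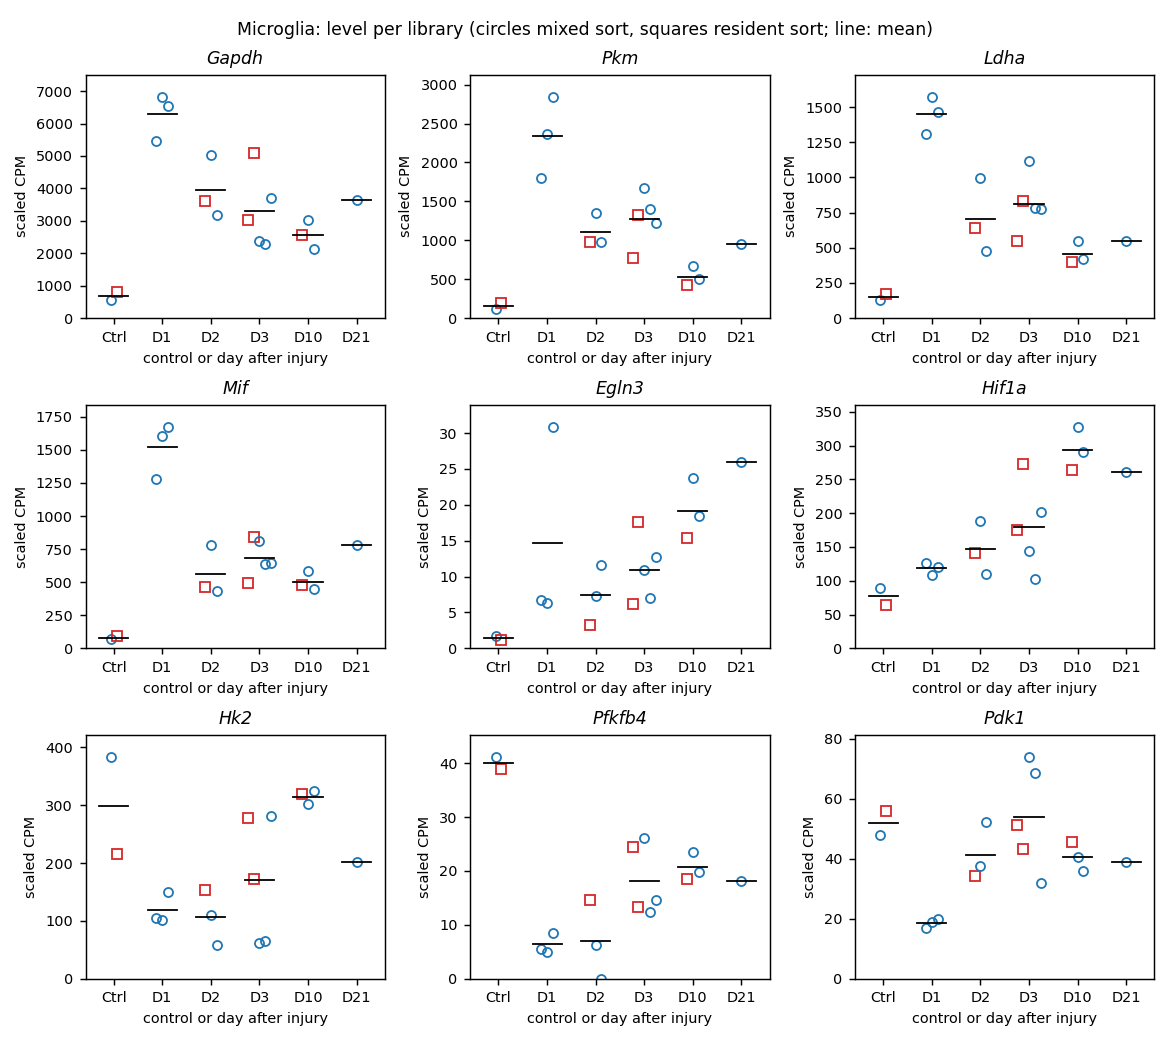
Scaled CPM in microglia (vertical axes, from 0) by time point for single members, each point a library (circles for the mixed and squares for the resident sort) and each line the group mean. Gapdh, Pkm, Ldha and Mif sit lowest in the 2 control libraries and highest at D1, whereas Hif1a is highest at D10.

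The test compared summed counts per library with edgeR's quasi-likelihood method, with time point and sex as terms and adjustment over all genes tested. At D1 against Ctrl, 18 of 36 members rose and 3 fell in microglia at an adjusted p under 0.05. The background in this comparison is high: 46.6% of the 10801 genes tested were called, 23.9% higher and 22.7% lower. Lack of overlap is common too. In CPM without TMM scaling, 15.8% of 14473 genes with counts lay above both controls in all D1 libraries and 46.8% below. Of the 36 members, 18 lay above and 6 below. The 15 members not called ranged from -1.07 to 3.12 on the log2 scale. The median log2 change was 1.44 over the members and -0.01 over all genes. Scaling decides part of this. The TMM factors ran from 1.38 to 1.46 in the control sums and from 0.843 to 0.905 at D1. With library size alone, without TMM, the median of all genes against Ctrl was -0.73 for D1 and -0.40 for D2. It was -0.62 for D3, -0.60 for D10 and -0.94 for D21. The D1 calls were then 16 higher and 6 lower. On the TMM scale 22 members were called without D1_mixed 3 and 21 without cluster 2. In the mixed libraries alone 11 of the 21 were called, all higher. Those that lost the call were Hk3, Pfkp, Pfkfb4, Slc16a1, Pdk1, Pdk3, Egln3, Ero1l, P4ha1 and Adm, so none of the 3 falls passed there. The single mixed control is female and the mixed D1, D3 and D10 libraries are male. In that fit the sex term rests on D2_mixed 1 against D2_mixed 2 alone, the latter with 23 microglia. It enters these comparisons with Ctrl, so that fit cannot tell a weak call from an error in the sex term. All log2 changes below are on the TMM scale, that is, relative to a median gene near 0.

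The lower part of the pathway held the largest changes among the enzymes. Every step from aldolase to pyruvate kinase rose at D1 through its main gene. Gapdh, which oxidises glyceraldehyde 3-phosphate and was the most abundant member, measured 563 and 804 scaled CPM in the control microglia and 5469, 6828 and 6550 in the D1 libraries. The D1 libraries lay far above both controls, and the log2 change was 3.20 ± 0.39 (SE) with an edgeR adjusted p of 1.37e-05. Pkm, pyruvate kinase, went from 117 and 194 to 1801, 2362 and 2845, a change of 3.76 ± 0.36 (edgeR adjusted p = 2.99e-06). Pgk1, the first enzyme of the path to yield ATP, went from 41.0 and 69.6 to 476, 602 and 738, a change of 3.40 ± 0.39 (edgeR adjusted p = 9.53e-06). In none of these genes did a D1 library overlap a control library. Aldolase A (Aldoa) changed by 2.92, phosphoglycerate mutase Pgam1 by 2.91, enolase Eno1 by 2.74 and triosephosphate isomerase Tpi1 by 2.60, with edgeR adjusted p-values from 3.54e-06 to 9.96e-05. The second aldolase and enolase, Aldoc and Eno2, stayed far below Aldoa and Eno1. Aldoc measured 3.33 to 3.49 scaled CPM in the controls and 2.20 to 18.4 at D1, and Eno2 0.827 to 1.69 at D1, and neither passed the test there. Gapdh, Aldoa, Pgk1, Tpi1 and Eno1 have near-identical copies or pseudogenes in the genome, so their counts carry some uncertainty. The separately listed copies were small here, with 4 UMIs for Aldoa.1 against 207756 for Aldoa, and 2515 for Eno1b against 135273 for Eno1.

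The rises receded by D10 but did not return to control values. At D10 Gapdh measured 2552, 3030 and 2144 scaled CPM and Pkm 426, 675 and 501, which lay below all D1 and above both control libraries. In CPM without TMM scaling, 17.8% of all genes with counts lay wholly below D1 at D10 and 9.79% wholly above Ctrl. Against D1, the change at D10 was -2.02 for Pkm, -1.68 for Eno1, -1.54 for Pgk1, -1.29 for Gapdh, -1.23 for Pgam1, -0.84 for Tpi1 and -0.71 for Aldoa, all called. The Tpi1 call was lost in 7 of 17 omissions of a library and the Aldoa call without D1_mixed 2 or D10_mixed 2. Against Ctrl, Aldoa was still changed by 2.21, Gapdh by 1.91, Pgk1 by 1.86, Tpi1 by 1.76, Pkm by 1.74 and Pgam1 by 1.68 (edgeR adjusted p from 5.76e-05 to 0.00377). Eno1 no longer passed. Ldha was called at D10 against both Ctrl and D1. As each library was left out in turn, its change ran from 1.40 to 1.85 against Ctrl and from -1.82 to -1.55 against D1. These late calls lean on a single control: without Ctrl_mixed 1, 3 of the 12 members called at D10 passed, namely Aldoa, Mif and Hif1a. The monocyte and macrophage list summed to 422 to 509 CPM in D10 microglia, near its D1 range, and the microglia list to 12015 to 14227 CPM.

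The entry steps behaved less uniformly. Hexokinases commit glucose to the cell, and Hk2 was the main one in control microglia. It measured 383 and 215 scaled CPM in the controls, 105, 101 and 150 at D1, and 319, 302 and 324 at D10. All D1 libraries lay below both controls, as 46.8% of all genes with counts did in CPM without TMM scaling. The D1 change of Hk2, -1.07 ± 0.52, did not pass (edgeR adjusted p = 0.0991). With library size alone it did, at -1.80. The return between D1 and D10 was called, at 1.28 (edgeR adjusted p = 0.0386), but was lost when D1_mixed 1, D1_mixed 2, D2_mixed 1, D10_mixed 1 or D10_mixed 2 was left out. Hk3, the hexokinase of leukocytes, went the other way, from 19.7 and 31.8 to 45.5 to 75.9 at D1 (1.22 ± 0.35, edgeR adjusted p = 0.00851). That call was lost without Ctrl_mixed 1 and with library size alone. At D10 Hk3 had fallen by 1.23 from D1. As a share of all hexokinase UMIs, which no scaling touches, Hk2 made up 88.3% in control microglia, 60.8% (54.2 to 69.3%) at D1 and 90.8% (89.7 to 91.6%) at D10. Hk1 lay at 1.76 to 25.1 scaled CPM in microglia and was called in 1 comparison there, a fall of 1.18 from D1 to D10 (edgeR adjusted p = 0.0488) that was lost without 11 of the 17 libraries in turn.

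Phosphoglucose isomerase (Gpi1) rose at D1, from 108 and 105 to 408, 481 and 545 scaled CPM (2.12 ± 0.30, edgeR adjusted p = 4.55e-05). Of the phosphofructokinase genes, the liver form Pfkl dominated in microglia and was not called at D1. The platelet form Pfkp rose from 1.04 and 0.740 to 6.29, 5.64 and 14.1 (3.15 ± 0.64, edgeR adjusted p = 0.000821). These values rest on 8 and 2 UMIs in the controls and on 26, 17 and 51 at D1. Its changes against Ctrl are thus set against a level near the detection limit. The muscle form Pfkm stayed between 0 and 9.53 in every microglial sum and was not called in any comparison. Pfkfb4, one of the bifunctional enzymes that set the level of the activator fructose 2,6-bisphosphate, was called lower. It measured 41.1 and 38.8 in the controls and 5.56, 4.97 and 8.54 at D1, without overlap, a change of -2.70 ± 0.43 (edgeR adjusted p = 0.000129). In the mixed libraries alone its fitted change was 4.59, although these D1 libraries, all mixed, lay below the mixed control. The sex term of that fit, which rests on the mixed D2 libraries, sets this sign. By D10 Pfkfb4 was back at 18.6, 23.6 and 19.9, between both groups and called above D1 by 1.73. Pfkfb3 measured 55.5 and 46.2 in the controls and 18.9 to 48.8 at D1. It was called in microglia at D3 alone, at -0.98 (edgeR adjusted p = 0.0443), and lost that call in 10 of 17 omissions of a library.

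At the fork after pyruvate the 2 subunits of lactate dehydrogenase parted. Ldha, whose enzyme favours pyruvate to lactate, went from 126 and 174 scaled CPM in control microglia to 1311, 1575 and 1464 at D1, a change of 3.23 ± 0.37 (edgeR adjusted p = 9.27e-06). Ldhb, whose enzyme favours the reverse, measured 384 and 257 in the controls and 275, 234 and 280 at D1, which overlapped and was not called. The overlap depends on scaling, since in CPM without TMM all D1 libraries lay below both controls. Ldhb was then called higher at D3 than at D1 by 0.93 and at D10 than at D1 by 0.75. The first call was lost without D1_mixed 2 and the second in 8 of 17 omissions of a library. The share of Ldhb in the UMIs of both genes was 75.3% and 59.6% in the controls. It was 12.96 to 17.3% at D1, 30.2 to 46.3% at D3 and 44.4 to 53.9% at D10. The groups of Ctrl, D1 and D10 did not overlap in this share, and no D3 library reached a control value. In macrophages Ldhb made up 0.654 to 4.66% at D1.

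**Figure D2:**
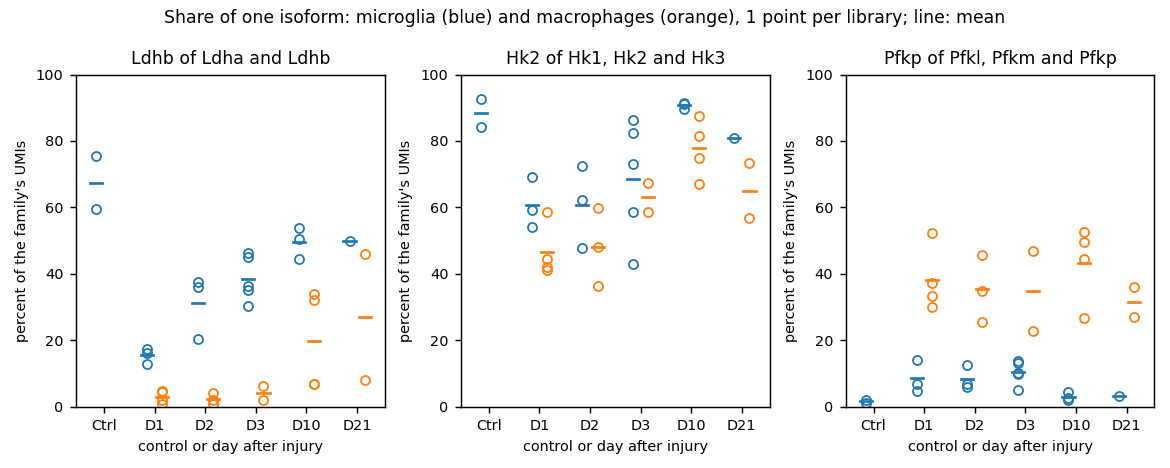
Share of Ldhb in the UMIs of Ldha and Ldhb, of Hk2 in those of the 3 hexokinase genes and of Pfkp in those of the 3 phosphofructokinase genes, in percent (vertical axes) by time point. Each point is a library (blue for microglia, orange for macrophages) and lines are means; the microglial Ldhb points fall from 59.6% and above in Ctrl to 17.3% and below at D1.

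The monocarboxylate transporters that move lactate across the membrane both rose at D1. Slc16a3, the exporter of strongly glycolytic cells, went from 38.0 and 68.8 to 162, 184 and 130 scaled CPM (1.54 ± 0.31, edgeR adjusted p = 0.000815). Slc16a1 went from 8.67 and 10.4 to 32.4, 30.5 and 20.1 (1.35 ± 0.39, edgeR adjusted p = 0.00848), a call lost without Ctrl_resident 1 and with library size alone. Slc16a1 was back at 7.43 to 12.9 at D10, 1.23 below D1. Slc16a3 measured 95.7, 109 and 97.7 at D10, below all D1 and above both control libraries. Its D10 level was called neither against D1 (-0.62, edgeR adjusted p = 0.081) nor against Ctrl. The pyruvate dehydrogenase kinases, which close the way into the mitochondria, took opposite directions. Pdk1 fell from 48.0 and 55.9 to 16.9, 18.9 and 19.8 (-1.48 ± 0.32, edgeR adjusted p = 0.00143) and was called 1.48 above D1 by D3. Pdk3 rose from 7.89 and 10.7 to 28.3, 37.5 and 34.5 (1.78 ± 0.40, edgeR adjusted p = 0.00178). The Pdk1 fall was lost without Ctrl_resident 1 (edgeR adjusted p = 0.0536).

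Hif1a itself followed another clock. In microglia it measured 88.9 and 64.7 scaled CPM in the controls, 126, 108 and 121 at D1, 102 to 272 with a median of 176 over the 5 D3 libraries, and 263, 328 and 290 at D10. Every D1 library lay above both controls, but the change of 0.71 ± 0.35 did not pass (edgeR adjusted p = 0.104). The call came at D2 (0.99, edgeR adjusted p = 0.035), at D3 (1.29 ± 0.33, edgeR adjusted p = 0.00554) and at D10 (1.98 ± 0.35, edgeR adjusted p = 0.00131). The D2 and D3 calls were lost with library size alone, where the changes were 0.62 and 0.70. The D2 call was also lost without Ctrl_mixed 1, Ctrl_resident 1, D2_resident 1 or D2_mixed 1, and the D3 call without Ctrl_resident 1. D10 against D1 was called at 1.26 (edgeR adjusted p = 0.00386). The mean of 294 at D10 was the highest of all time points, at a time when Gapdh, Pkm and Ldha lay below their D1 levels.

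Of the prolyl hydroxylases that mark the factor for destruction, Egln1 was not called in microglia. It measured 1.76 to 85.7 scaled CPM, and the 2 lowest values, 6.52 and 1.76, came from D3_mixed 1 and D3_mixed 2, which share a sequencing pool, while all other sums lay from 28.1 up. Egln3, itself a target of the factor, rose from 1.68 and 1.11 to 6.77, 6.30 and 30.9 at D1 (3.21 ± 0.77, edgeR adjusted p = 0.0028). The third D1 value is that of D1_mixed 3, and the change was 2.11 without that library and 1.37 (edgeR adjusted p = 0.0328) without cluster 2. At D10 Egln3 measured 15.3, 23.8 and 18.4, all above both controls (3.63 ± 0.73, edgeR adjusted p = 0.0033). The D10 call was lost when either control was left out.

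The remaining targets split into a uniform and a library-bound group. Mif, a cytokine and known target of the factor, had the largest change of the members called at D1 other than Adm, from 68.4 and 91.0 to 1282, 1606 and 1674 scaled CPM (4.24 ± 0.36, edgeR adjusted p = 9.99e-07). It stayed at 475, 586 and 447 at D10, above both controls (2.65, edgeR adjusted p = 6.24e-05). Ero1l, an oxidase that helps secreted proteins fold, rose from 13.1 and 10.7 to 48.9, 54.1 and 53.2 (2.15 ± 0.31, edgeR adjusted p = 5.13e-05). P4ha1, a collagen prolyl hydroxylase subunit, fell at D1 by 1.24 (edgeR adjusted p = 0.0244), a call lost without either control, D1_mixed 2 or D1_mixed 3.

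The mitophagy receptor Bnip3 measured 20.7 and 21.8 in the controls and 26.6, 39.5 and 129 at D1. The stress gene Ndrg1 measured 0.259 and 1.11, then 0.726, 0.995 and 13.8. The mTORC1 inhibitor Ddit4 measured 7.76 and 30.7, then 0.484, 1.99 and 51.3. In all 3 the high D1 value is D1_mixed 3 alone, and none of them was called. In that library, the microglia inside cluster 2 held Bnip3 at 276 CPM and those outside it at 34.1 CPM, without TMM scaling. Ndrg1 was at 36.3 CPM inside and 0.670 CPM outside, while Ldha was at 1382 and 1166 CPM and Hif1a at 96.8 and 104 CPM. The macrophages outside cluster 2 of the same library also held Bnip3 at 380 CPM and Ndrg1 at 34.8 CPM. Adm, a vasodilator peptide, was at 0 UMIs in both controls and at 32 UMIs over the 3 D1 sums, with values of 1.21, 2.32 and 5.51 scaled CPM. Set against a floor of 3 counts over both controls, this was at least 10.3-fold higher at D1, and at least 5.84-fold without D1_mixed 3. Adm passed the filter on low counts through D1, where it is high, so its call (edgeR adjusted p = 0.00361) carries little weight. The call was lost without Ctrl_mixed 1, and the gene was not tested without D1_mixed 3, D21_mixed 1 or cluster 2. At D10, 1 UMI was counted, 0.0311 of the D1 level with an exact 95% counting interval from 0.000763 to 0.186. Without D1_mixed 3 that ratio was 0.0550, with an interval from 0.00129 to 0.371. Bnip3l and Ankrd37 were not called in microglia in any comparison.

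The later comparisons in microglia against Ctrl also had more members higher than lower. At D2, 16 members rose and 1 fell (background 29.7%, of it 17.6% higher and 12.2% lower; median log2 change 1.24 against -0.02 for all genes), led by Pkm (2.85), Mif (2.83) and Pgk1 (2.77). Pfkfb4 fell by 1.99 there. Eno2 was called at D2 alone (2.55, edgeR adjusted p = 0.0103), from sums of 7.44, 5.83 and 0 scaled CPM. At D3, 16 rose and 2 fell (background 37.6%, of it 20.1% higher and 17.6% lower; median 1.25 against -0.04), led by Pfkp (3.48), Mif (3.09), Pkm (2.94) and Egln3 (2.94). Ldha changed by 2.25 at D2 and 2.40 at D3, Slc16a3 by 0.98 and 1.02, and Hk2 by -1.26 and -0.64, of which the Hk2 values did not pass. With library size alone Slc16a3 lost its calls at D2 (0.59) and D3 (0.43), and Pdk3 that at D3 (0.88). At D10, 12 rose and none fell (background 10.3%, of it 8.06% higher and 2.22% lower; median 0.88 against -0.01). By DESeq2 13 passed at D10, all higher, and at an unadjusted edgeR p under 0.05 19 did. At D21, 12 rose and none fell (background 6.98%, of it 6.12% higher and 0.861% lower; median 1.03 against -0.08), with 14 higher by DESeq2 and 17 at an unadjusted edgeR p under 0.05. With library size alone the splits were 14 higher and 4 lower at D2, 13 and 6 at D3, 11 and 3 at D10, and 9 and 1 at D21. D21 rests on 1 library, assumed to vary like the others, with Egln3 (4.11), Mif (3.32), Aldoa (2.91) and Pkm (2.83) in front. Ldha (1.94) and Hif1a (1.69) were also called at D21 and lost that call with library size alone (1.08 and 0.83). Pfkl was called against Ctrl at D21 alone (1.38, edgeR adjusted p = 0.0267).

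**Figure D3:**
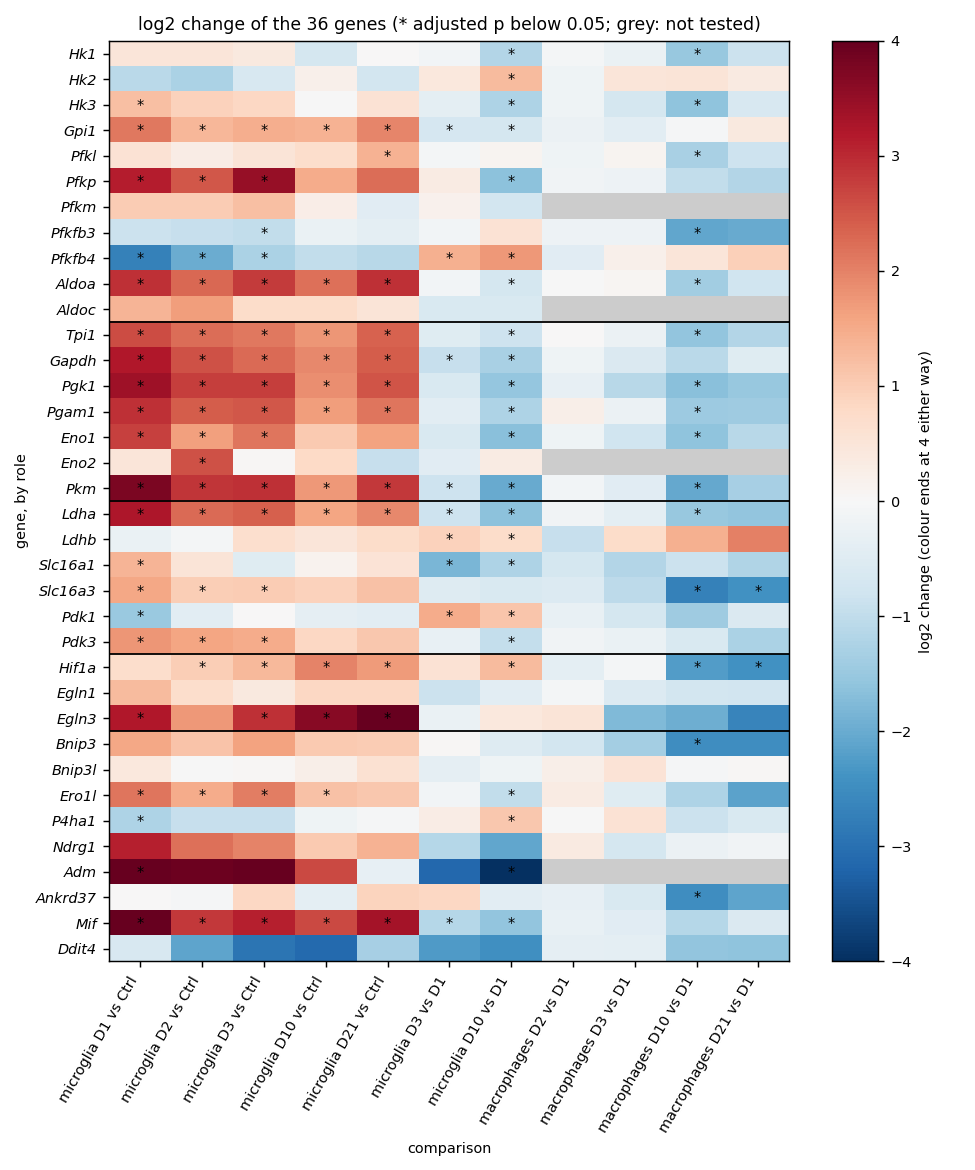
Log2 change of each member (rows) in each comparison (columns), as colour, with an asterisk for calls at an edgeR adjusted p under 0.05 and grey where a gene was not tested. Gapdh, Pgk1, Pgam1, Pkm and Mif are called higher in microglia at D1, D2, D3 and D10, and the macrophage calls at D10 against D1 are all lower.

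Counts of calls moved with single libraries. Without Ctrl_mixed 1 the count at D2 was 11 and at D21 it was 4. Pfkp, Eno1, Eno2, Slc16a3, Pdk3 and Hif1a lost their D2 calls without that library, and Pfkfb3, Pfkfb4, Slc16a3, Pdk3 and Egln3 their D3 calls. With sequencing pool as a term 13 of the 17 calls at D2, 5 of the 18 at D3 and all 12 at D10 were kept, and 5 more members were called at D10. In the mixed libraries alone 11 calls were kept at D3 and 3 at D10, and Hif1a passed at none of D2, D3, D10 and D21. From D1 to D3, 9 members were called, 6 lower and 3 higher (18.8% of all genes were called, 10.2% lower and 8.62% higher). Slc16a1 (-1.82), Mif (-1.14), Gapdh (-0.93), Ldha (-0.82), Pkm (-0.82) and Gpi1 (-0.67) were lower, and Pdk1 (1.48), Pfkfb4 (1.43) and Ldhb (0.93) were higher. Without D1_mixed 2, 3 of the calls from D1 to D3 were left. From D1 to D10, 17 fell and 6 rose (background 33.7%, of it 16% lower and 17.7% higher; median -0.73 against 0.07). With library size alone 12 fell and 6 rose, and Hk1, Gpi1, Aldoa, Tpi1 and Pdk3 were the calls lost. The 6 were Pfkfb4 (1.73), Hk2 (1.28), Hif1a (1.26), Pdk1 (1.12), P4ha1 (1.08) and Ldhb (0.75). Without D1_mixed 2 the count of 23 dropped to 15, and without D10_mixed 2 to 14. Gpi1, Pfkp, Pdk3 and P4ha1 lost these calls in 4, 3, 5 and 6 omissions of a library. Without cluster 2, Hk1, Pfkp, Tpi1, Ldhb and Ero1l lost their D10 against D1 calls. The comparisons with D1 share its 3 libraries.

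In macrophages 15 of the 32 members tested were called lower at D10, and no member was called before. Of 32 members that passed the filter on low counts (Pfkm, Aldoc, Eno2 and Adm did not), 0 were called at D2 or D3 against D1. Of all 8577 genes tested 0% were called in either comparison, and DESeq2 called 0 members in both. At an unadjusted p under 0.05, edgeR gave 0 members at D2 and 1 at D3. At D10 against D1, 15 members fell and none rose (14.4% of all genes were called, 7.04% lower and 7.31% higher; median -1.40 against 0.01), and 20 had an unadjusted edgeR p under 0.05. The 17 members not called ranged from -1.94 to 1.43. A gene of the 32 may have passed the filter only where it was high.

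Slc16a3 had the largest fall of the members called, and Hif1a was the other member called at both D10 and D21. Slc16a3 measured 184, 204, 98.2 and 365 scaled CPM in the macrophages of D1 and 36.9, 41.6, 37.5 and 17.1 at D10, with no overlap (-2.69 ± 0.45, edgeR adjusted p = 0.00288). Hif1a measured 407, 623, 340 and 406 at D1 and 102, 126, 76.6 and 79.0 at D10, again with no overlap (-2.22 ± 0.42, edgeR adjusted p = 0.00561). At D21 Hif1a was at 56.4 and 121 and Slc16a3 at 44.0 and 34.5, changes of -2.42 for each (edgeR adjusted p = 0.0363 and 0.0425). These were the only members called at D21 (background 3.56%, of it 1.61% lower and 1.95% higher). No member was called at D21 without D1_infiltrating 2, D1_mixed 3, D10_mixed 1, D21_infiltrating 1 or D21_mixed 1, and 1 was called without D2_mixed 2 or D10_infiltrating 2.

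Of the enzymes, Pkm went from 1685, 1791, 1189 and 2490 at D1 to 269, 343, 514 and 619 at D10 (-2.04, edgeR adjusted p = 0.00402). Ldha went from 921, 1100.1, 732 and 1145 to 209, 220.1, 416 and 531 (-1.53, edgeR adjusted p = 0.00951). Pgk1 changed by -1.66, Eno1 and Hk3 by -1.61, Tpi1 by -1.59, Hk1 by -1.51, Pgam1 by -1.45, Aldoa by -1.40 and Pfkl by -1.30. Pfkfb3, the member of its family induced in activated myeloid cells, changed by -2.09 (edgeR adjusted p = 0.0216), from 11.3 to 152 at D1 to 12.01 to 17.1 at D10, so that these groups overlapped. Bnip3 changed by -2.49 (edgeR adjusted p = 0.0184) and by -1.65 without D1_mixed 3, and the call was lost without D10_mixed 2 (edgeR adjusted p = 0.0552). Ankrd37, a small hypoxia-induced gene, changed by -2.49 (edgeR adjusted p = 0.0493) and lost the call in 9 omissions of a library and with D2_infiltrating 1, whose sex label and deposited code differ, as male (edgeR adjusted p = 0.0597). Hk2 was at 0.51 (edgeR adjusted p = 0.311), and its share of hexokinase UMIs was 46.5% at D1 and 77.8% at D10. Without D1_infiltrating 2, 8 members were called instead of 15, with Hk1, Pfkl, Pfkfb3, Aldoa, Pgk1, Pgam1 and Ankrd37 lost, without D1_mixed 3 12 were called and without cluster 2 16. Over all libraries, clusters 8, 11 and 12 held 636, 1750 and 684 cells of D1 and 15, 6 and 9 of D10, while cluster 9 held 54 of D1 and 589 of D10. The monocyte and macrophage marker list in the macrophages of this comparison summed to 8165 to 14508 CPM at D1 and 3890 to 6495 CPM at D10, without overlap. Their median percent of mitochondrial counts was 0.162 to 1.43% at D1 and 1.45 to 1.61% at D10, also without overlap. The microglia marker list in these macrophages summed to 309 to 1180 CPM at D1 and to 960 to 3769 CPM at D10. Its D10 values were 3769 and 3671 in the infiltrating and 1100 and 960 in the mixed libraries. Ldhb, high in microglia, measured 107 and 104 in the former pair and 30.0 and 38.4 in the latter. The part of the clusters, the markers and the mitochondrial percent in the falls was not tested.

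The 14 libraries with both cell types allowed the course of macrophages to be set against that of microglia. They include D10_infiltrating 2 and D21_infiltrating 1, with 36 and 41 microglia, a cell type which that sort was built to leave out. They also include macrophages from the resident sort, in D2_resident 1, D3_resident 1, D3_resident 2 and D10_resident 1. Such cells stayed out of the separate microglia and macrophage fits. The test asks whether the macrophage to microglia difference changed between D1 to D3 (8 libraries) and D10 to D21 (6 libraries). Of 34 members tested, 7 had a lower difference late and none a higher one (10.7% of 9596 genes were called, 3.6% lower and 7.09% higher). Hif1a had the largest shift, -2.08 ± 0.35 (edgeR adjusted p = 0.000564). Early, macrophages held more of it in 7 of 8 libraries, at mean levels of 286 against 164 scaled CPM. Late, microglia held more in 6 of 6 libraries, at 239 against 95.9. Pfkl, which also crossed over, had macrophages higher in 8 of 8 early and 0 of 6 late libraries (-1.28 ± 0.26, edgeR adjusted p = 0.003).

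Slc16a3 had a mean log2 difference of 0.10 early, with macrophages higher in 3 of 8 libraries, and of -1.27 late, with macrophages higher in 1 of 6 (-1.55 ± 0.40, edgeR adjusted p = 0.0158). It lost the call without D10_mixed 2 (edgeR adjusted p = 0.0666). Pfkfb3 had mean differences of 0.81 and -0.36 (-1.97 ± 0.45, edgeR adjusted p = 0.00621), with macrophages higher in 7 of 8 early and 1 of 6 late libraries. In D10_infiltrating 2 the microglial sum of Pfkfb3 was 0 scaled CPM. P4ha1 (-1.13), Aldoa (-0.87) and Tpi1 (-0.78) had edgeR adjusted p-values from 0.0281 to 0.0481 and lost their calls in 11, 6 and 10 omissions of a library. Aldoa and Tpi1 also lost them without cluster 2, and 5 members were called without cluster 2 and also 5 without D1_mixed 3. The count of 7 dropped to 4 without D2_resident 1, D3_resident 1, D10_mixed 1 or D21_infiltrating 1. Ldha (-0.43, edgeR adjusted p = 0.417) and Hk2 (-0.26, edgeR adjusted p = 0.671) did not pass.

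**Figure D4:**
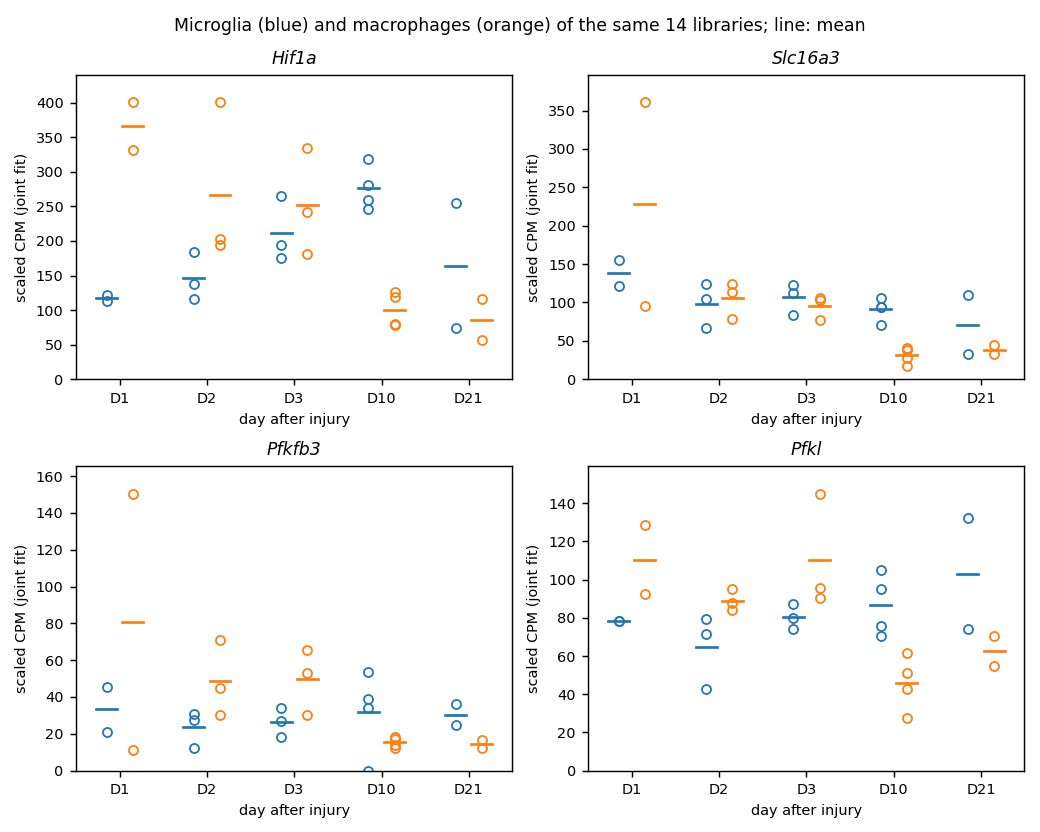
Scaled CPM of Hif1a, Slc16a3, Pfkfb3 and Pfkl (vertical axes) by time point in the microglia and macrophages of the same 14 libraries, with lines for the means. The macrophage points of Hif1a lie between 181 and 401 at D1 to D3 and between 56.4 and 126 at D10 and D21, while its microglial points lie between 246 and 318 at D10 and at 254 and 74.0 at D21, the last inside the macrophage range.

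Other differences between the cell types are given as a description, since the codes were made from all genes of these cells. Ldhb was lower in macrophages in all 14 libraries, with mean log2 differences of -3.29 early and -2.43 late. Pfkp was higher in macrophages in all 14, by 2.44 and 2.54, Ndrg1 by 2.07 and 3.06, and Hk1 by 1.05 and 1.51. Over these libraries Pfkp made up 20.5 to 52.6% of the phosphofructokinase UMIs in macrophages and 1.92 to 14.3% in microglia, where the highest share is 1 of 7 UMIs. Gapdh had a mean difference of -0.66 in both periods, with macrophages higher in 0 of 8 and 1 of 6 libraries. Gpi1 was near equal early (-0.07) and higher in macrophages late (0.54).

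The reporter sort gives a division that does not depend on the codes. Over 12 libraries with time point, sex and sort as terms, 3 members were higher in infiltrating than in resident cells and 1 was lower (11.2% of 11548 genes were called, 5.17% higher and 6.04% lower). Pfkp measured 25.6 to 138 scaled CPM in the 7 infiltrating and 0.778 to 32.6 in the 5 resident libraries, and at each of D2, D3 and D10 the infiltrating libraries lay above the resident ones (2.29 ± 0.32, edgeR adjusted p = 0.00378). Ddit4 measured 11.5 to 79.7 and 2.29 to 32.3 (2.28 ± 0.26, edgeR adjusted p = 0.00205). Its highest resident value was that of the control. Hk1 measured 10.1 to 49.3 and 5.56 to 31.8 (1.14 ± 0.28, edgeR adjusted p = 0.03), and its call was lost in 6 omissions of a library. Ldhb measured 7.35 to 111 and 210 to 360 without overlap (-3.87 ± 0.65, edgeR adjusted p = 0.00856). It lost its call without D2_infiltrating 1 or D2_resident 1. D2_infiltrating 1 is labelled female but carries the code of the male libraries in the deposited table of cells. With that library as male the same 4 members were called, Ldhb at -3.73 (edgeR adjusted p = 0.0136) and Hk1 at 1.05 (edgeR adjusted p = 0.04997). Hif1a (0.43), Hk2 (-0.41), Slc16a3 (-0.13) and Ldha (-0.05) did not pass, with edgeR adjusted p from 0.357 to 0.925. With D3_conflict 1 added as infiltrating 5 members were called, the 4 among them, and with it added as resident no member was called, whereas 9 were called without D1_infiltrating 1 or 2. Dendritic- and neutrophil-like cells are part of these sums.

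Those minor cell types had profiles of their own, given here in CPM without TMM scaling and without a test. Dendritic-like cells had Pfkp at 32.5 to 298 CPM and Ddit4 at 12.5 to 180 CPM in the 10 libraries with at least 20 of them, with Hk3 at 0 to 8.39 CPM and Ldhb at 0 to 67.6 CPM. The members' share of their UMIs was 0.763% at D1 and 0.439% at D10. Neutrophil-like cells occurred in 14 libraries and reached 20 cells in 5, of which the conflicting D3 library held 897. In these 5 they had the mitophagy receptor Bnip3l at 400 to 946 CPM, Pfkfb4 at 62.4 to 181 CPM, Hk3 at 52.6 to 191 CPM and Egln3 at 10.4 to 104 CPM. Their Ldha lay at 250 to 450 CPM. The share was 0.863% at D1 and 0.926% at D2.

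Over the 16 deposited clusters the members are described without a test, because the clusters were drawn from the same counts. Cluster 1, which holds all 1887 control cells, had the lowest share of UMIs in the members when pooled over libraries (0.450%). By the median over libraries with at least 20 of its cells, cluster 9 was lower, at 0.383% (9 libraries) against 0.463% (2 libraries) in cluster 1. Pooled, cluster 9 was at 0.920%. Cluster 1 also had the highest pooled Hk2 (476 CPM), Ldhb (491 CPM), Pdk1 (70.1 CPM) and P4ha1 (314 CPM). Cluster 2, with 1924 cells of which 49.9% came from D1, had the highest share (1.78%, with 0.764 to 2.18% over its libraries). It led for Gapdh (5748 CPM), Pkm (2181 CPM), Aldoa (1565 CPM), Mif (1404 CPM), Eno1 (1257 CPM), Bnip3 (176 CPM) and Adm (8.63 CPM).

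Cluster 5, with 69.5% of its cells from D1, had the highest Ldha (1154 CPM). Among macrophage clusters, cluster 11 led for Pgam1 (1052 CPM), Ero1l (115 CPM) and Ankrd37 (39.2 CPM), and cluster 12 for Hif1a (668 CPM), ahead of cluster 11 (587 CPM). Cluster 14, with 118 cells and a median of 1488 UMIs, led for Slc16a3 (283 CPM), Pfkfb3 (182 CPM) and Hk3 (150 CPM) when pooled over libraries. In its 2 libraries with at least 20 cells Slc16a3 was at 67.3 and 584 CPM, and the members' share was 0.497 and 0.525%, against 0.942% pooled. Cluster 15, the dendritic-like cells, led for Pfkp and Ddit4 (144 and 86.5 CPM), and cluster 16, the neutrophil-like cells, for Bnip3l (567.6 CPM) and Egln3 (53.8 CPM).

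**Figure D5:**
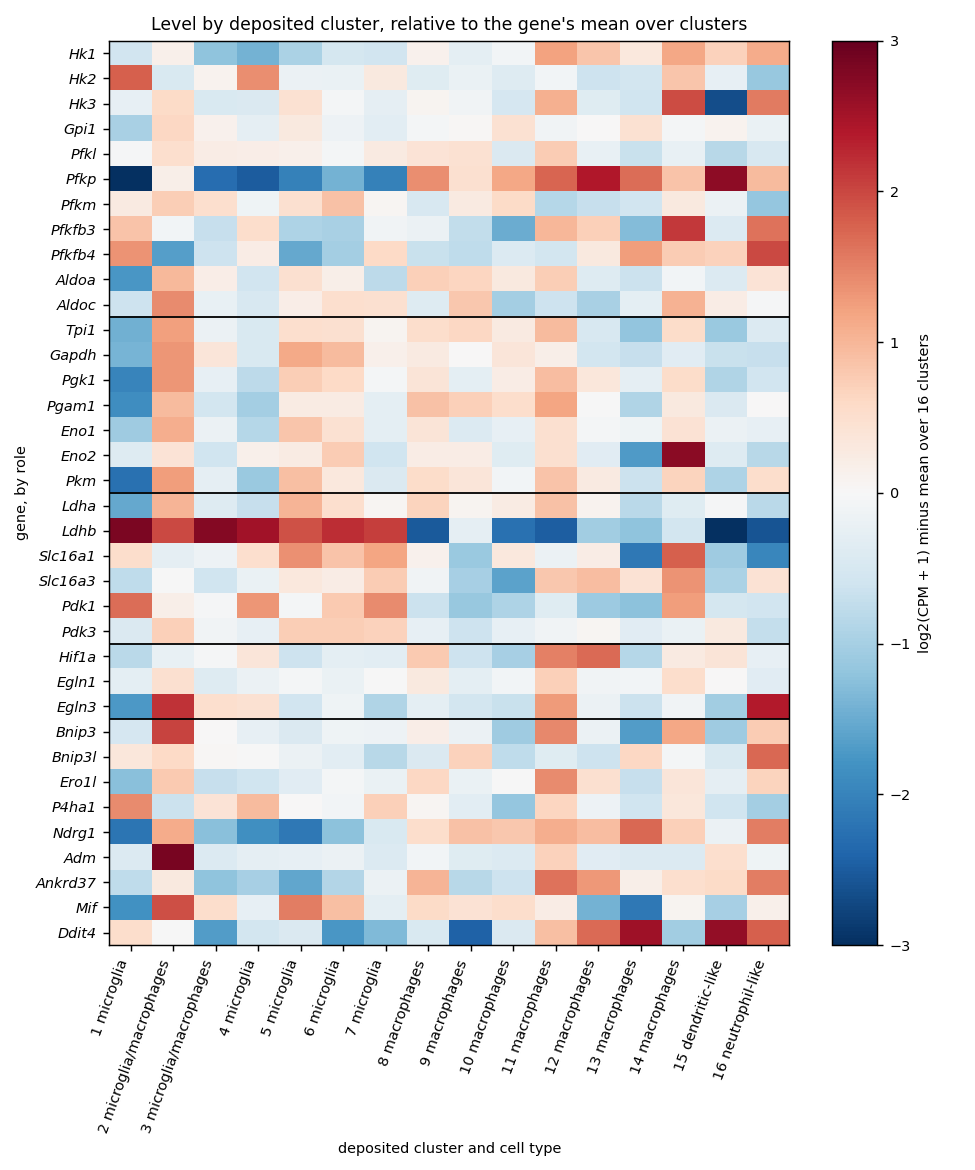
Levels of the members (rows) over the 16 deposited clusters (columns), as log2(CPM + 1) centred on each gene's mean. Cluster 1 is low for the lower enzymes and high for Hk2 and Ldhb, and cluster 2 is high for the lower enzymes and for Bnip3 and Adm.

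Neighbouring pathways moved with the list in part. At D1 against Ctrl in microglia, 4 of 8 pentose phosphate genes rose and none fell, among them transketolase Tkt (1.49) and Pgd (1.27). Of 10 tested genes that carry pyruvate into mitochondrial use, 5 rose and none fell, such as Pdha1 (1.35) and the carrier subunits Mpc1 (0.79) and Mpc2 (0.80). Of 7 further glycolytic enzymes tested, 3 rose, Pgm2 (1.66), Pgm1 (1.62) and Gpd2 (1.53), and Pgm2l1 fell by 2.15. Of 5 tested regulators of the factor, 4 fell: Cited2 (-2.20), Hif1an (-1.40), Vhl (-1.28) and Arnt (-1.05), its obligate partner. Egln2 rose by 0.94. Of 13 further hypoxia targets tested, 6 rose and 3 fell, with P4ha2 (5.75), the haem-degrading Hmox1 (5.55), Bhlhe40 (3.27) and Fam162a (2.57) in front. The 3 falls were Wsb1 (-1.86), Kdm3a (-1.73) and Zfp395 (-1.18). The background of 23.9% higher and 22.7% lower applies to these counts.

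In macrophages at D10 against D1, 4 of 10 further hypoxia targets fell and none rose: Hmox1 (-4.54), the angiogenic factor Vegfa (-4.01), the glucose transporter Slc2a1 (-2.55) and Bhlhe40 (-1.39). The background there was 7.04% lower and 7.31% higher. In the other lists, 1 of 8 pentose phosphate genes fell (Pgd, -0.93), 1 of 5 further glycolytic enzymes rose (Eno3, 1.95), and 0 of 8 pyruvate genes and 0 of 5 regulators were called by edgeR. The same 4 targets, Vegfa (-2.83), Bhlhe40 (-2.20), Hmox1 (-1.84) and Slc2a1 (-1.69), also had a lower macrophage to microglia difference late than early (background 3.6% lower). In the sort comparison Nos2, Bhlhe40 (1.52) and Gpd2 (1.32) were higher in infiltrating libraries and Plod1 (-1.68) was lower (background 5.17% higher and 6.04% lower). In microglia at D10 against Ctrl, 3 of the 13 targets were called higher, namely Bhlhe40 (4.81), Hmox1 (1.93) and Fam162a (1.53), against a background of 8.06% higher and 2.22% lower. In the pentose phosphate list 1 of 8 (Pgls, 1.14) and in the pyruvate list 1 of 10 (Mpc1, 0.99) were called, shares near that background.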

How the data were processed

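Raw UMI counts of each gene in each cell were deposited by the authors, made with Cell Ranger 3.1.0 on GRCm38 (mm10) per the submitters' processing notes. They also deposited a table of cells with library, pool, cluster and cell type codes and the percent of mitochondrial counts per cell. Their cell filters and their method of clustering are not given in the sources used here. The lowest deposited cell had 713 UMIs and the highest percent of mitochondrial counts was 22.6%. All deposited cells were kept, with no search for doublets and no correction for free RNA. Cell type names rest on marker lists.

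Counts were summed per library and cell type (at least 20 cells) and fitted with edgeR 4.0.16 in R 4.3.3 (TMM, filterByExpr, 2-sided quasi-likelihood test, Benjamini-Hochberg adjustment over all genes tested, threshold 0.05). The microglia fit had 17 sums of 135042 to 7780469 UMIs and the macrophage fit 15 of 234175 to 21904087. The sort fit had 12 libraries and the joint fit 28 sums of 83875 to 21981881 UMIs. DESeq2 1.42.0 was an alternative. The main test was checked on simulated data with known changes. The main microglia fit used the resident and mixed libraries, the macrophage fit the infiltrating and mixed ones.

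By rule, the members named are those called, the largest change first and up to 10 in each direction, and up to 4 called genes of each other list. Hif1a, Hk2, Ldha and Slc16a3 were to be given in every comparison, called or not, but some of their changes are left out above. Members named without a call, such as Bnip3, Ndrg1, Ddit4, Egln1 and Aldoc in microglia, and the falls among further hypoxia targets were chosen after their values had been seen. Members, lists and alternatives were chosen with earlier results of these data known. The alternatives with library size alone and with D2_infiltrating 1 as male, the code it carries in the deposited table against its label, were added after the data had been seen. UMIs are 3′ tags, so levels are not divided by gene length. Promoter sequences and genome positions are from RefSeq.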

Additional observations from a re-analysis of the deposited data

Results flagged for a closer look

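Among 100 groups of 4 or 5 libraries checked, 1 for each member, cell type and time point, 7 had a library far from the rest by Dixon's criterion. Chance alone puts about 1 in 20 groups past it. In the macrophages of D1, 4 of the 7 came from the same library, D1_mixed 3. There Gapdh measured 5633 scaled CPM against 2675 to 3045 in the other libraries, Eno1 2032 against 668 to 864, Hk3 107.6 against 56.6 to 59.7, and Pdk3 33.6 against 11.3 to 14.6. In the microglia of D3, D3_resident 2 held Aldoc at 16.6 scaled CPM against 0 to 4.45, and Adm at 1.07 against 0 in the others. Where all others are at 0 any nonzero value meets the criterion, so the Adm flag carries little weight. In the macrophages of D10, D10_mixed 1 held Egln1 at 76.6 against 46.8 to 48.4.

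The difference between macrophages and microglia of the same library changed between D1 to D3 and D10 to D21 for 7 members by the edgeR interaction test. The log2 shifts were -2.08 for Hif1a, -1.97 for Pfkfb3, -1.55 for Slc16a3, -1.28 for Pfkl, -1.13 for P4ha1, -0.87 for Aldoa and -0.78 for Tpi1. All 7 were lower in macrophages relative to microglia at the later times.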

How the results depend on the processing

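Single genes called in the comparisons (140 results in all) were the same calls in 136 with RLE scaling, 134 without the expression filter, 139 with DESeq2 and 122 with library size alone. Where they could be fitted, 77 of 119 were kept in the mixed libraries alone, 30 of 49 with sequencing pool as a term, 121 of 129 with sort as a term and 20 of 21 with D2_infiltrating 1 as male. In the mixed libraries alone the counts of called members were 11 at D1, 11 at D3 and 3 at D10 against Ctrl. There the fitted changes of Pfkfb4 were 4.59 at D1 and 5.97 at D3, and that of Pfkfb3 was 0.21 at D3, none past the threshold. These fitted signs include the sex term, which in that fit rests on D2_mixed 1 against D2_mixed 2 alone. The measured Pfkfb4 values of the D1 libraries, all mixed, lay below both controls. With sequencing pool as a term the count was 5 at D3 against Ctrl and 0 for macrophages at D21, and Pdk3 reversed to -0.25 at D3. A pool term could not be fitted in microglia for D1 or D21 against Ctrl or for D3 or D10 against D1. It could not be fitted for macrophages at D10 against D1 either. The macrophage count at D21 was also 4 without the filter, 7 with DESeq2 and 4 without clusters 6, 7 and 10. The sort count was 0 with the conflicting library as resident, and the late against early count was 4 with at least 50 cells per sum. The cause was not tested. With 1 library left out in turn, the counts against Ctrl ran from 18 to 23 (D1), 11 to 22 (D2) and 13 to 21 (D3). The later ones ran from 3 to 13 (D10) and 4 to 13 (D21). They ran from 3 to 9 for D3 against D1 and from 14 to 23 for D10 against D1 in microglia. In macrophages they stayed at 0 for D2 and D3 and ran from 8 to 18 for D10 and 0 to 3 for D21. They ran from 2 to 9 for the sort and from 4 to 7 for late against early. With the replicate block the counts in microglia against Ctrl were 24 for D1, 19 for D2 and for D3, 14 for D10 and 12 for D21, and those against D1 were 9 for D3 and 18 for D10. With that block they were 0, 0, 14 and 1 in macrophages at D2, D3, D10 and D21, and 4 for the sort. Same-numbered mixed libraries of D1 and D3 had deviations that correlated at -0.02, 0.09 and 0.07. Those of D1 and D10 correlated at 0.11 and -0.19, and those of D3 and D10 at 0.06 and -0.05. With so few libraries per time point these values cannot show whether the numbers pair the libraries. Depth limits the members at a few CPM, such as Adm, Eno2, Ndrg1 and Pfkm, and Pfkp in control microglia. D21 in microglia is limited by its single library.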
